A study of Mus musculus with 34 samples.

Results

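Molecular chaperones bind proteins that are not yet folded, or have come unfolded, and hold or refold them at the cost of ATP. Each compartment of the cell has its own machines, with HSP90, HSP70, J-domain proteins and the ring-shaped chaperonin CCT in the cytosol, a bacterial-type HSP70 and chaperonin in mitochondria, and BiP, GRP94, lectin chaperones and disulfide isomerases in the endoplasmic reticulum (ER). Heat shock factor drives the cytosolic and many mitochondrial chaperone genes, and the unfolded protein response drives the ER ones. A T cell that leaves rest begins to grow and to make and secrete protein, which brings new chains to these machines.

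The 42 genes described here are heat shock proteins, chaperonins and their co-chaperones, taken from a list of symbols and read on all 34 arrays of the series. Each gene was read through the probe set annotated to its symbol alone, the brightest over all arrays where there were several. Of the 42, 39 had such a probe set, among 19938 genes in all. Hsp90ab1, the constitutive cytosolic HSP90, and Hsf1, the heat shock factor itself, were not analysed here. Hspa1b, 1 of a pair of nearly identical inducible HSP70 genes, was read only on a probe set shared with its twin Hspa1a. The small heat shock protein Hspb1 was measured but dim, with a highest group mean of 5.05 log2 under a limit of 5.327, the median of all values. This left 38 members among the 11413 genes that reached the limit in at least 1 group.

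The cells were CD4+ splenocytes of female mice aged 8 weeks, bound to CD4 beads and separated on an AutoMACS instrument. They came from 5 inbred strains, 129X1/SvJ, DBA/2J, C57BL/6J, Balb/c and A/J. T1 cells had received PMA (phorbol 12-myristate 13-acetate, an activator of protein kinase C) at 10 ng/ml and ionomycin (a calcium ionophore) at 1 uM for 4 h, and T0 cells had received neither. A/J and C57BL/6J had 4 arrays at each time, and Balb/c, DBA/2J and 129X1/SvJ had 3. Within a strain and time the labels number these as separate biological replicates. The same numbers recur at T1 and T0, and the labels do not say whether a number marks the same animals. The main fits took all arrays as independent. The protocol does not settle whether T0 cells spent the same 4 h in culture, so culture and stimulus cannot be told apart. P-values measure the spread between these replicates.

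Values are log2 intensities, and array medians lay between 5.28 and 5.39. The 9 activation markers checked all rose at T1. Cd4 itself averaged 8.54 at T1 and 9.40 at T0. Over the 9 CD4 T cell markers kept, the array mean lay between 8.59 and 9.40 at T1 and between 9.17 and 9.60 at T0, and over 11 B cell markers between 6.26 and 6.90 at T1 and between 7.13 and 8.82 at T0. Over 8 neutrophil markers, of which 7 fell, it lay between 4.46 and 6.06 at T1 and between 5.07 and 7.77 at T0. Their median difference was -0.53 in C57BL/6J and between -2.22 and -1.93 in the other 4 strains. Of 6 CD8 T and NK cell markers 4 fell and 2 rose, with array means of 5.73 to 6.55 at T1 and 5.97 to 6.92 at T0. In bulk RNA, fewer cells of a type and less RNA per cell cannot be told apart, and the part of such cells in the results on chaperones was not tested. Each T1 array was compared with the T0 profiles of the strains over 179 probe sets, and each T0 array with the T1 profiles over 35. The array labelled Balb/c T1 replicate 2 was most like C57BL/6J (correlation 0.619, against -0.185 with Balb/c), while the other 33 arrays were most like their own strain (0.75 to 0.873 for the other 16 T1 arrays and 0.778 to 0.943 for the 17 T0 arrays). It is called the doubtful Balb/c array hereafter, and stays in its labelled group. Counts over the members and the strain values that it moves are given also without it, while ranges and medians over arrays include it.

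Most of the chaperone genes were higher after stimulation. Of all genes, 82.3% were called in either direction. Of the 38 members, 31 rose at T1 (81.6%), whereas 36% of all genes did. The 3 members that fell were Hspa14, Dnajb11 and Pdia4 (46.3% of all genes fell), and Ptges3, Dnaja1, Trap1 and Calr did not pass the threshold. Calls here are at an adjusted p under 0.05 from limma, for the mean of the 5 strain differences. The median difference, T1 minus T0, was 0.54 log2 over the members and -0.07 over all genes. In 20 members the 17 T1 arrays all lay above the 17 T0 arrays, as they did in 9.28% of all genes, and no member had all T1 arrays below (17.5% of all genes). Called higher in all 5 strains were 21 members (13.8% of all genes), and no member was called lower in all 5 (25.6% of all genes). With the doubtful Balb/c array left out, 30 members rose (4111 of 11430 genes did). Again 20 had no overlap (9.42% of all genes) and 21 rose in every strain (13.6% of all genes). A difference of more than 1 log2 was found for 6 members: Dnajb9, Hspd1, Hspa9, Hspa5, Hspe1 and Hsph1. Of all genes, 6.23% were higher by as much. Without the doubtful Balb/c array Hsph1 was at 0.99, and the others named stayed above 1 log2.

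Within single strains, 22 to 29 members rose. A/J had 22 higher and 1 lower, Dnajb11, where 20.3% of all genes rose, 36.3% fell and 56.6% were called in either direction. Balb/c had 27 higher (20.6% of all genes) and 0 lower (34.1%, with 54.7% called either way). It had 26 higher without the doubtful Balb/c array, a fit for which the share of all genes is not given here. C57BL/6J had 27 higher (25.1%) and 2 lower, Hspa14 and Dnaja1 (38.6%, with 63.7% called either way). DBA/2J had 28 higher (23.8%) and 0 lower (36.2%, with 60% called either way). For 129X1/SvJ 29 were higher (21.6%) and 1, Pdia4, was lower (34.7%, with 56.3% called either way). These counts say nothing of whether the strains differ, which is tested further on.

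**Figure D1:**
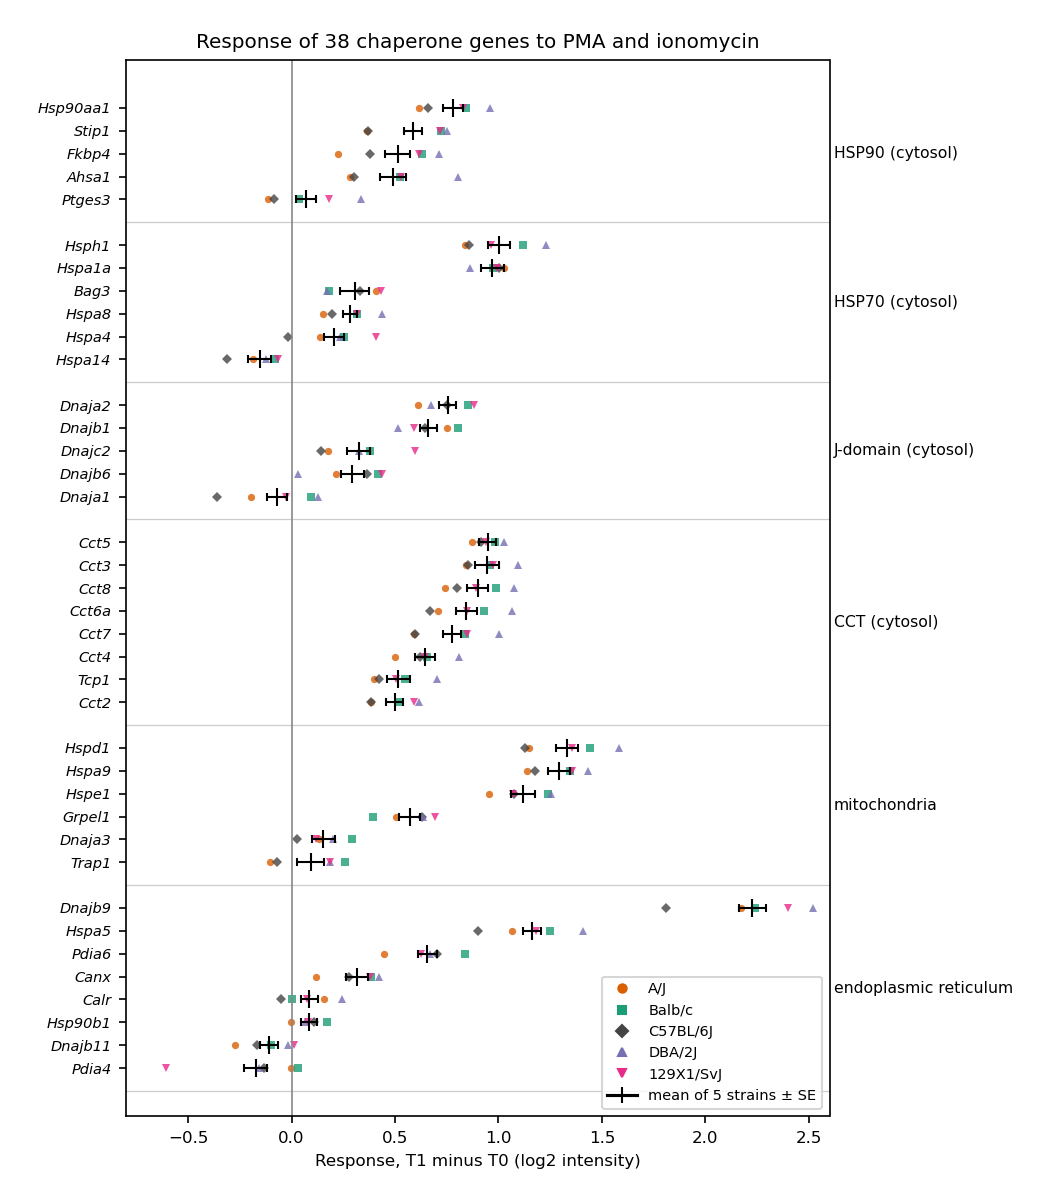
Difference between T1 and T0 (log2 intensity, horizontal axis) for each of the 38 genes, grouped by class. Coloured symbols are the 5 strains and the black bars are their mean ± SE. All 8 CCT genes lie between 0.50 and 0.95 on average, whereas the ER genes run from -0.17 for Pdia4 to 2.23 for Dnajb9.

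Of the 6 mitochondrial members, 3 rose by more than 1 log2. Hspd1, the HSP60 chaperonin ring of the matrix, read between 10.52 and 11.39 at T1 (median 10.96) and between 9.53 and 9.98 at T0 (median 9.70). The 2 sets of 17 arrays did not overlap, and the difference was 1.33 log2, or 2.52-fold (SE 0.05, adjusted p = 1.32e-20). Hspe1, the HSP10 lid of the same chaperonin, rose by 1.12 (SE 0.06), and Hspa9, the HSP70 that pulls proteins into the matrix, by 1.29 (SE 0.05). Grpel1, the exchange factor that resets Hspa9, rose by 0.57 and the J-domain partner Dnaja3 by 0.15. Trap1, the mitochondrial HSP90, read between 7.99 and 8.94 at T1 (median 8.69) and between 8.19 and 8.74 at T0 (median 8.51). Its T1 and T0 arrays overlapped over nearly the whole range, and its difference was 0.09 (SE 0.06, adjusted p = 0.181). The class had 5 of 6 members higher, with a median of 0.85.

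Hspd1 and Hspe1 lie head to head, and their start windows overlap. RefSeq windows (GRCm38.p6) run from 250 bases before to 50 after the gene's start. The windows that overlap most are chr1:55087883-55088182 on the minus strand for Hspd1 and chr1:55087898-55088197 on the plus strand for Hspe1. They have 285 bases in common. The Hspe1 window is printed because its pair of overlapping heat shock elements, in capitals, lies in both, and these are 2 of the members that rose most. A second Hspd1 window, chr1:55088194-55088493 on the minus strand, holds no such element.
Hspe1: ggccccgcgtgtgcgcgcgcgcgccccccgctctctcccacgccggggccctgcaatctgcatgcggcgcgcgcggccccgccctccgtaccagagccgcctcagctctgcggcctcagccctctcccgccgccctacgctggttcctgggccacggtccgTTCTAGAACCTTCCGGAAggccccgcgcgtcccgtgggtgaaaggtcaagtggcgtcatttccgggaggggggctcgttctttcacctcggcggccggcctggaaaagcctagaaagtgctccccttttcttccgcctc
The element was searched on both strands as 3 alternating units, GAA then TTC then GAA or TTC then GAA then TTC, with NN (any 2 bases) between units, and matches may overlap. A gene with several windows counted if any of them held the element. It was found for 4 of the 35 members with a window in the RefSeq table (11.4%), against 179 of 27025 genes (0.662%). The 4 were Hspd1, Hspe1, Hsph1 and Dnajb6, whose differences were 1.33, 1.12, 1.00 and 0.29. A match is a match of letters only and shows no binding.

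All 8 subunits of CCT, the cytosolic chaperonin that folds actin and tubulin, rose together. Their differences lay between 0.50 and 0.95, with a median of 0.81, and in each of the 5 strains all 8 were called higher (20.3% to 25.1% of all genes). Cct5 read between 10.40 and 10.93 at T1 (median 10.69) and between 9.56 and 9.89 at T0 (median 9.75). The times did not overlap, and Cct5 rose by 0.95, or 1.93-fold (SE 0.04, adjusted p = 3.93e-19). Cct2, the subunit with the smallest difference, read between 10.97 and 11.52 at T1 (median 11.30) and between 10.65 and 10.97 at T0 (median 10.80), a rise of 0.50 (SE 0.04, adjusted p = 1.92e-12). Its lowest T1 array lay at the level of its highest T0 array. Cct3 rose by 0.95, Cct8 by 0.90, Cct6a by 0.84, Cct7 by 0.78, Cct4 by 0.65 and Tcp1 by 0.52. In the 7 subunits other than Tcp1 the T1 arrays all lay above the T0 arrays.

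A list of 13 genes set beside CCT held prefoldin subunits, phosducin-like partners and tubulin-folding cofactors. Of these, 3 rose and 6 fell, with a median of -0.07, the same as over all genes, of which 36% rose and 46.3% fell. Pfdn2, a subunit of prefoldin, which hands nascent chains to CCT, rose by 0.95 (SE 0.09). Pdcl, a phosducin-like partner of CCT, fell by 1.19 (SE 0.06). The difference between this list and the ring subunits was not tested.

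In the HSP90 class, 4 of 5 members rose and 1 did not pass the threshold, with a median of 0.51. Hsp90aa1, the inducible cytosolic HSP90, read between 11.78 and 12.33 at T1 (median 12.02) and between 11.04 and 11.57 at T0 (median 11.32), a rise of 0.78 (SE 0.05, adjusted p = 1.81e-15) with no overlap. Stip1, which links HSP70 to HSP90, rose by 0.59 and also had no overlap. The immunophilin Fkbp4 rose by 0.51 and Ahsa1, which stimulates the ATPase of HSP90, by 0.49. Ptges3 (p23), which stabilises the closed form of HSP90, read between 11.04 and 11.84 at T1 and between 11.09 and 11.52 at T0, with a median of 11.37 at both times. Its difference was 0.07 (SE 0.05, adjusted p = 0.164).

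The HSP70 class was mixed, with 5 of 6 members higher, 1 lower and a median of 0.29. Hsph1, the HSP110 exchange factor of HSP70, read between 9.53 and 10.20 at T1 (median 10.01) and between 8.77 and 9.17 at T0 (median 9.04). It rose by 1.00 (SE 0.05, adjusted p = 2.44e-17) with no overlap. Hspa1a, the inducible HSP70, rose by 0.97 (SE 0.05), also with no overlap. The probe set it shares with Hspa1b read between 8.33 and 9.26 at T1 and between 7.10 and 8.20 at T0, a rise of 1.17 (SE 0.07). The RefSeq windows of the 2 genes are equal at 296 of 300 bases. The co-chaperone Bag3 rose by 0.31, the constitutive HSP70 Hspa8 by 0.28 and Hspa4 by 0.20. Hspa14, an HSP70 of the ribosome-associated complex, read between 7.65 and 8.60 at T1 (median 7.95) and between 7.89 and 8.35 at T0 (median 8.17), with wide overlap. It fell by 0.15 (SE 0.06, adjusted p = 0.0125).

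The Hsph1 window, chr5:149636266-149636565 on the minus strand, is shown for its heat shock element, in capitals, close to the gene's start.
Hsph1: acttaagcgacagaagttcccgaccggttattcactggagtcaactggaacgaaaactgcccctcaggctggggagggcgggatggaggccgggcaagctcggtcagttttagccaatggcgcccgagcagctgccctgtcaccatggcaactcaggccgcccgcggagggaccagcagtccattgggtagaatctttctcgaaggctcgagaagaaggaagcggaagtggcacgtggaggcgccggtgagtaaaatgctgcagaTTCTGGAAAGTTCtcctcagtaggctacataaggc
Neither window of Hspa1a and Hspa1b held the full element of 3 units, which says only that these letters are not in those 300 bases.

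Of the 5 cytosolic J-domain proteins, which hand substrates to HSP70, 4 rose and 1 did not pass the threshold, with a median of 0.32. Dnaja2 read between 9.88 and 10.41 at T1 (median 10.07) and between 9.27 and 9.49 at T0 (median 9.34). It rose by 0.75 (SE 0.04, adjusted p = 3.72e-17) with no overlap. Dnajb1, the main HSP40 partner of inducible HSP70, rose by 0.66 (SE 0.04), Dnajc2 of the ribosome-associated complex by 0.32 and Dnajb6 by 0.29. Dnaja1 read between 8.97 and 9.83 at T1 (median 9.46) and between 9.31 and 9.87 at T0 (median 9.55), a difference of -0.07 (SE 0.05, adjusted p = 0.175). The wider set of 30 other cytosolic chaperones and co-chaperones that were kept had 13 higher, 11 lower and a median of -0.05. Hspa4l, a relative of Hsph1, rose by 1.75 (SE 0.06), more than any cytosolic member, and the co-chaperone Dnajc7 fell by 1.15 (SE 0.06).

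**Figure D2:**
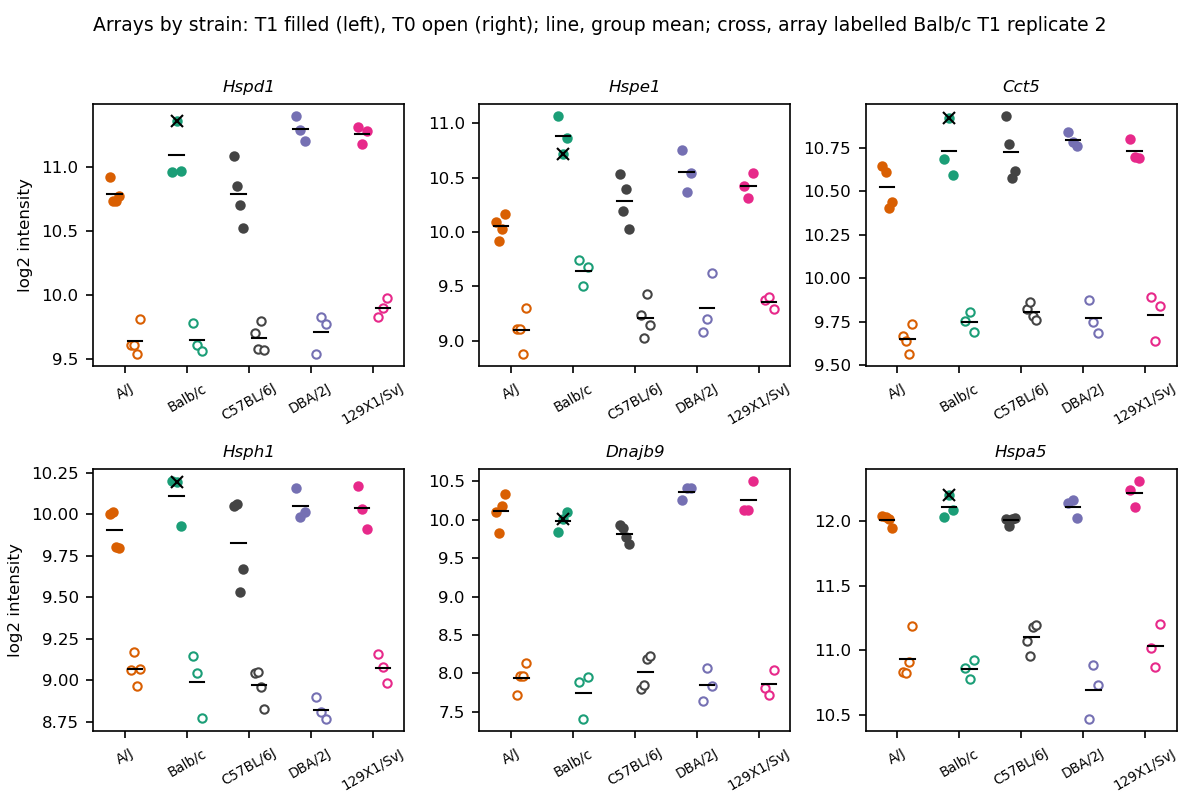
log2 intensity (vertical axis) of Hspd1, Hspe1, Cct5, Hsph1, Dnajb9 and Hspa5 on every array, by strain, with T1 filled and T0 open; lines are group means and the cross marks the doubtful Balb/c array. In each of the 6 genes all T1 arrays lie above all T0 arrays.

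The ER class held the largest rise and 2 of the 3 falls. Dnajb9 (ERdj4), a J-domain partner of BiP that is a known target of the unfolded protein response, read between 9.68 and 10.50 at T1 (median 10.11) and between 7.40 and 8.23 at T0 (median 7.88). It rose by 2.23, or 4.68-fold (SE 0.07, adjusted p = 1.33e-23), and its lowest T1 array was far above its highest T0 array. Hspa5 (BiP), the HSP70 of the ER, read between 11.94 and 12.30 at T1 (median 12.03) and between 10.47 and 11.20 at T0 (median 10.91). It rose by 1.16 (SE 0.04, adjusted p = 1.23e-20), again with no overlap. The disulfide isomerase Pdia6 rose by 0.66 and the lectin chaperone calnexin (Canx) by 0.32.

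The differences of the other ER members were small. Hsp90b1 (GRP94), the HSP90 of the ER, read between 10.50 and 11.14 at T1 (median 10.81) and between 10.53 and 11.09 at T0 (median 10.68). Its difference of 0.08 (SE 0.04, adjusted p = 0.0456) lay close to the threshold. Hsp90b1 was no longer called in 26 of 44 alternatives, among them 23 of the 34 that leave out a single array, and the adjusted p reached 0.0919. Calreticulin (Calr), the soluble partner of calnexin, differed by 0.09 (adjusted p = 0.0576). Dnajb11 (ERdj3), another partner of BiP, fell by 0.11 (SE 0.04) and Pdia4 (ERp72), a disulfide isomerase, by 0.17 (SE 0.06, adjusted p = 0.00548). The class as a whole had 5 of 8 members higher (Hsp90b1 among them), 2 lower and a median of 0.20, the lowest of the 6 classes. Small differences depend on the scaling of the arrays: centring each array on its median, which moves the median of all genes to 0.16, turned Hspa14, Dnaja1, Dnajb11 and Pdia4 positive, and quantile normalisation turned Ptges3, Hsp90b1 and Calr negative.

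The ER windows are shown because only some of them hold the element tied to ER stress. The ER stress element was searched on both strands as CCAAT, any 9 bases, then CCACG, and was found for 37 of 27025 genes (0.137%) and for 5 of the 8 ER members, Calr, Canx, Hsp90b1, Hspa5 and Pdia6. No other member held it. Hspa5 (chr2:34771840-34772139, plus strand) has 1 copy and Hsp90b1 (chr10:86705395-86705694, minus strand) has 2, in opposite directions, whereas Dnajb9 (chr12:44210019-44210318, minus strand) has none. Capitals mark the element.
Hspa5: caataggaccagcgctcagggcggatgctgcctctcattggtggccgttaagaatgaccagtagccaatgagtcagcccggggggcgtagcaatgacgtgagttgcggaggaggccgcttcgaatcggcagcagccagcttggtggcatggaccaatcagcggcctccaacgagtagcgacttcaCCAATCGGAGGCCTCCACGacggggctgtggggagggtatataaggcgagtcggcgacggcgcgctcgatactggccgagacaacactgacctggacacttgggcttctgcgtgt
Hsp90b1: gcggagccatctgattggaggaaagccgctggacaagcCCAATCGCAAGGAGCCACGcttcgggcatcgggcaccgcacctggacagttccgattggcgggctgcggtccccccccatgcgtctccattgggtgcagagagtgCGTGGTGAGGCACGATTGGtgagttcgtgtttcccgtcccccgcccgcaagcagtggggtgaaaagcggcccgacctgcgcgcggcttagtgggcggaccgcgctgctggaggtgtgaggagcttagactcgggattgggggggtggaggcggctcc
Dnajb9: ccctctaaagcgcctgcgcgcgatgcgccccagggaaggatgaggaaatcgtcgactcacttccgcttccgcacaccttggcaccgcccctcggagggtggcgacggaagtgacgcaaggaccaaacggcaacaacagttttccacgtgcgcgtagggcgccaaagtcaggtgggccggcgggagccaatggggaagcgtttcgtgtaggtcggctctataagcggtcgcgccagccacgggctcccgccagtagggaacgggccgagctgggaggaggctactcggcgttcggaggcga
The 5 genes with the element differed between the times by 1.16 (Hspa5), 0.66 (Pdia6), 0.32 (Canx), 0.09 (Calr) and 0.08 (Hsp90b1), and the gene without it that moved most, Dnajb9, by 2.23.

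Of 15 regulators of the unfolded protein response that were kept, 8 rose and 6 fell, with a median of 0.16, beside 36% and 46.3% of all genes and a median of -0.07. Ppp1r15a (GADD34), which reverses the translation block, rose by 1.98 (SE 0.06), the transcription factor Atf4 by 1.23 (SE 0.04) and Atf6, another of its transcription factors, by 1.09 (SE 0.08). The sensor kinase Eif2ak3 (PERK) fell by 1.07 (SE 0.09), the sensor Ern1 (IRE1) by 0.68 and the transcription factor Xbp1 by 0.45. Of 24 other ER folding factors, 13 rose and 9 fell (median 0.18), with Calu at 0.65 and Dnajc10 at -1.36. Of 18 other mitochondrial chaperones and proteases, 9 rose and 7 fell (median 0.02), with Pitrm1 at 0.79 and Yme1l1 at -0.68. These are the largest rise and fall of each list among genes with the same direction in all strains, apart from Atf4, Atf6, Ern1 and Xbp1, which were chosen after their values were seen.

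More of these genes were called different between the 5 strains at T1 than at T0. Counts at each time do not test a change. The test of the response between strains, given further on, called 0 of 38 members (6.92% of all genes). At T1 the strain means of 26 of 38 members differed (moderated F test in limma, 68.4%), whereas 31% of all genes did. At T0 5 of 38 differed (13.2%), whereas 18.5% of all genes did. The median range over the 5 strain means was 0.38 log2 at T1 and 0.20 at T0 over the members, and 0.34 at T1 and 0.27 at T0 over all genes. The range was larger at T1 than at T0 in 35 of 38 members (92.1%) and in 63.8% of all genes. Without the doubtful Balb/c array these shares were 84.2% and 67.1%, and 27 members differed at T1 (36.8% of all genes). The count at T1 depended on which strain was left out. It was 13 without A/J, 15 without DBA/2J and 17 without 129X1/SvJ, when 19%, 21.2% and 21.6% of all genes differed. It was 21 without C57BL/6J and 27 without Balb/c, when 25.8% and 34.4% of all genes differed.

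A/J cells most often had the lowest level at T1, in 21 of 38 members, and 129X1/SvJ cells (17) and DBA/2J cells (11) most often the highest. These counts were 21, 17 and 12 without the doubtful Balb/c array. Of all genes, 25.7% were lowest in A/J at T1, 25.2% highest in 129X1/SvJ and 19.1% highest in DBA/2J. At T0 129X1/SvJ was already highest in 19 members (23.9% of all genes), DBA/2J was lowest in 16 (20.8%) and A/J in 10 (22.8%). At T1 the mean over the 8 CCT genes was 10.80 for DBA/2J, 10.77 for 129X1/SvJ, 10.69 for Balb/c, 10.60 for C57BL/6J and 10.49 for A/J, while at T0 the 5 means lay between 9.86 and 9.99. Without the doubtful Balb/c array the Balb/c mean was 10.58, just under that of C57BL/6J. The HSP90 class had 10.51 for DBA/2J and 129X1/SvJ, 10.36 for Balb/c, 10.17 for C57BL/6J and 10.13 for A/J at T1, and 9.79 to 9.94 at T0, with Balb/c at 10.27 when that array was left out. Marker lists are given beside this, without a test between strains. At T1 the mean over 9 activation markers was highest in A/J (11.45) and lowest in C57BL/6J (11.23). At T0 it was 8.18 in A/J, 8.17 in C57BL/6J, 8.10 in Balb/c, 7.43 in 129X1/SvJ and 7.16 in DBA/2J. The median response of these markers was 3.60 in DBA/2J, 3.54 in 129X1/SvJ, 3.09 in Balb/c (doubtful array included), 2.89 in A/J and 2.73 in C57BL/6J. The T1 mean over 9 CD4 T cell markers was highest in A/J (9.31) and lowest in 129X1/SvJ (8.71). That over 11 B cell markers was highest in 129X1/SvJ (6.78) and lowest in A/J (6.42), and that over 6 erythroid markers highest in A/J (8.36) and lowest in 129X1/SvJ (5.44). Their part in the strain differences of the chaperones was not tested.

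**Figure D3:**
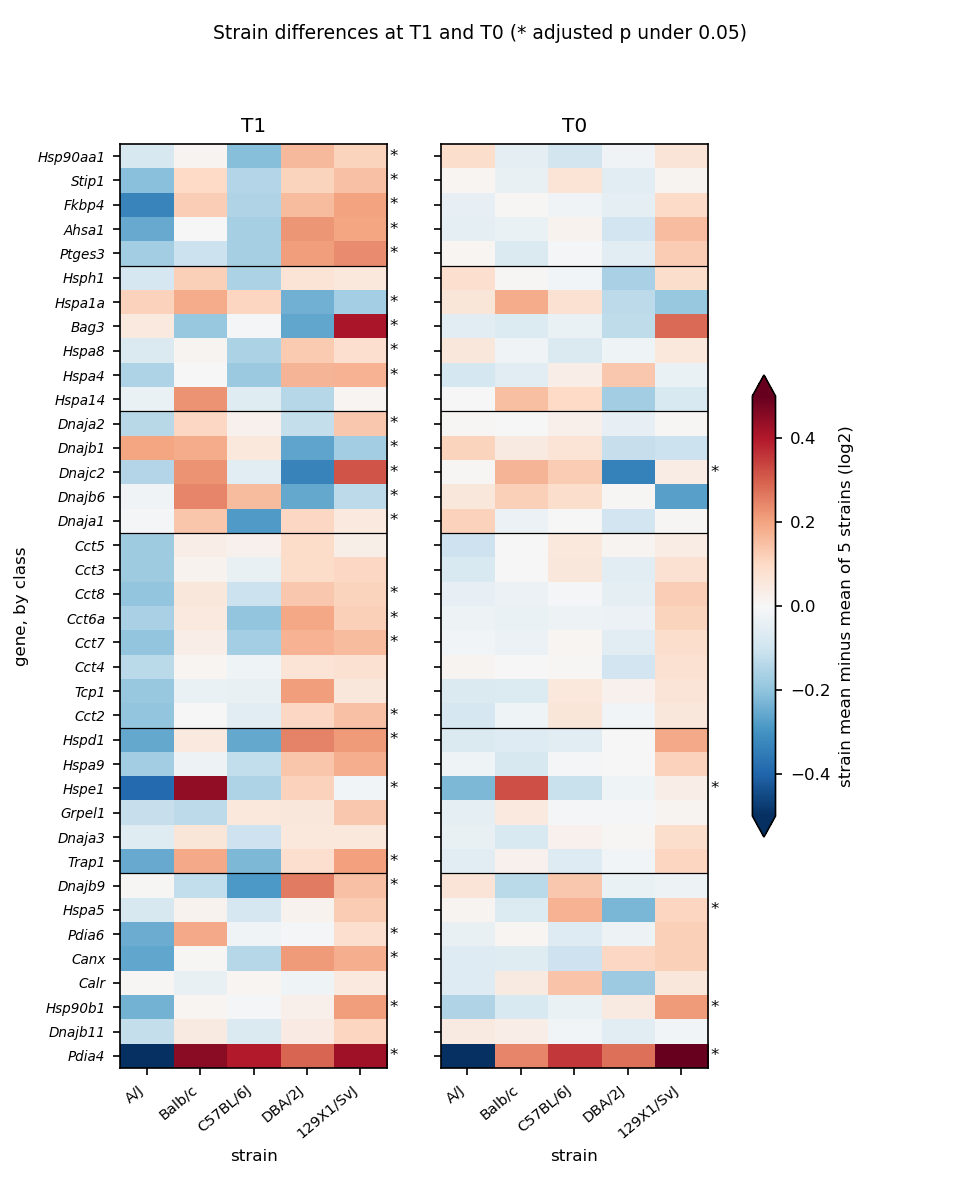
Strain mean minus the mean of the 5 strains (colour, log2) for each of the 38 genes, with T1 left and T0 right. Stars mark an adjusted p under 0.05 in the F test over strains, 26 at T1 and 5 at T0; colours stop at 0.5, which Pdia4 exceeds.

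The response itself, T1 minus T0, was also compared between strains. Its median over the members was 0.67 for DBA/2J, 0.61 for 129X1/SvJ, 0.59 for Balb/c and 0.40 for both C57BL/6J and A/J, and the Balb/c value was 0.49 without the doubtful Balb/c array. It was largest in DBA/2J for 23 of 38 members (60.5%), as it was for 21% of all genes. Among genes that rose, it was largest in DBA/2J for 20 of 31 members (64.5%) and for 31.9% of all. Without the doubtful Balb/c array it was largest in DBA/2J for 22 members (57.9%) and for 21.6% of all genes. No single member passed the test of a difference in response between strains (0 of 38 by limma, with 6.92% of all genes called), although 8 members had an unadjusted p under 0.05, as 19.1% of all genes did. The smallest adjusted p values were those of Stip1, Pdia4 and Hspa5. Without the doubtful Balb/c array 0 of 38 members were again called, with 10.3% of all genes.

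Stip1 gave the smallest p for the response. Its means at T1 were 10.04 for 129X1/SvJ, 10.01 for DBA/2J, 10.00 for Balb/c, 9.75 for C57BL/6J and 9.69 for A/J, with SDs of 0.07 to 0.19 (n = 3 or 4). Its T0 means lay between 9.26 and 9.38. Its responses were 0.75 for DBA/2J, 0.72 for Balb/c and 129X1/SvJ, 0.37 for C57BL/6J and 0.36 for A/J. The test of the difference gave an adjusted p of 0.0676 in limma. Without the doubtful Balb/c array Balb/c had a mean of 9.90 at T1 and a response of 0.62, and the adjusted p was 0.0538.

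Hspa5 went against the general pattern, since its strains differed at T0 (adjusted p = 0.0245) and not detectably at T1 (adjusted p = 0.344). At T1 its strain means lay between 12.00 and 12.21. At T0 they were 11.10 ± 0.11 for C57BL/6J (SD, n = 4), 11.03 ± 0.17 for 129X1/SvJ (n = 3), 10.94 ± 0.17 for A/J (n = 4), 10.85 ± 0.07 for Balb/c (n = 3) and 10.70 ± 0.21 for DBA/2J (n = 3). The strain with the lowest T0 level, DBA/2J, had the largest response, 1.41, and the strain with the highest, C57BL/6J, had the smallest, 0.90. The response is T1 minus T0 and the T1 means lay close together, so this order largely restates the T0 levels. The F test over strains did not call the response of Hspa5 different (adjusted p = 0.12). Calr and Pdia4 were the other 2 members whose range over strains was smaller at T1 than at T0.

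Hspe1 differed between strains at both times (adjusted p = 0.000248 at T1 and 0.0283 at T0). Balb/c read 11.07, 10.72 (the doubtful array) and 10.86 at T1 and 9.74, 9.50 and 9.68 at T0. A/J read 10.09, 9.92, 10.03 and 10.17 at T1 and 9.10, 9.11, 8.88 and 9.30 at T0. All Balb/c arrays were above all A/J arrays of the same time, and the response was 1.24 in Balb/c and 0.95 in A/J, a difference that the test over strains did not call. Without the doubtful array the Balb/c response of Hspe1 was 1.32. On the probe set of its own chromosome, described further on, the strains were not called different at T0 (adjusted p = 0.155). Dnajb1 differed at T1 alone by the threshold (adjusted p = 0.00053 at T1 and 0.221 at T0), with means at T1 of 8.89 for A/J, 8.88 for Balb/c, 8.75 for C57BL/6J, 8.52 for 129X1/SvJ and 8.43 for DBA/2J, and 8.89 for Balb/c without the doubtful array. It is the 1 member of the 38 for which A/J was highest at T1. Hspa1a, its HSP70 partner, was likewise lowest in DBA/2J at T1 (range 0.43, adjusted p = 0.0195).

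Hsp90b1 differed at both times (adjusted p = 0.00292 at T1 and 0.0204 at T0). It averaged 11.03 ± 0.10 in 129X1/SvJ (n = 3) and 10.58 ± 0.08 in A/J (SD, n = 4) at T1, and 10.95 ± 0.12 in 129X1/SvJ and 10.59 ± 0.05 in A/J at T0. Dnajc2, the last of the 5 members called at T0, was lowest in DBA/2J at both times, with 7.12 at T1 and 6.79 at T0.

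Pdia4 gave the largest strain difference of any member. Its probe set read 6.79, 6.75, 7.03 and 6.57 in A/J at T1 and 6.85, 6.88, 6.54 and 6.89 in A/J at T0. In the other 4 strains every array lay between 8.51 and 9.65 at both times, so A/J did not overlap with any of them. The range over strains was 2.01 log2 at T1 (adjusted p = 3.09e-14) and 2.58 at T0 (adjusted p = 5.95e-16). In 129X1/SvJ it averaged 8.77 ± 0.26 at T1 and 9.37 ± 0.24 at T0 (SD, n = 3 each), a fall of 0.60 that was called in that strain, whereas the differences in the other 4 strains, between -0.16 and 0.03, were not. The F test over strains did not call the response of Pdia4 different (adjusted p = 0.111). A second, dimmer probe set of Pdia4 gave a difference of 0.21 between the times, of opposite sign, and a strain range of 0.83 at T1 and 0.85 at T0. Whether a sequence variant under the probes contributes to the low A/J values was not tested.

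**Figure D4:**
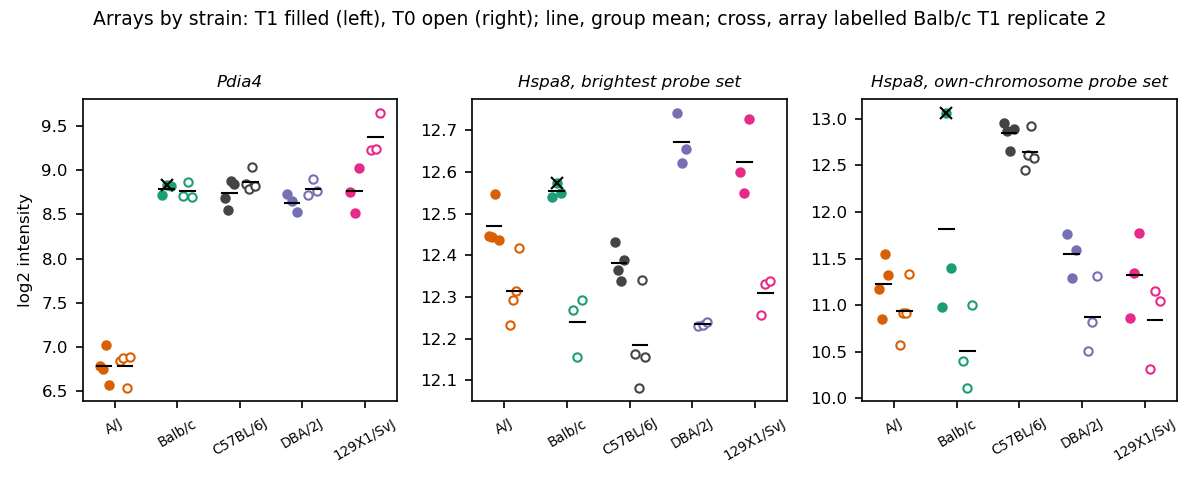
log2 intensity (vertical axis) of Pdia4 and of 2 probe sets of Hspa8 on every array, by strain, with T1 filled and T0 open; lines are group means and the cross marks the doubtful Balb/c array. Pdia4 is low in all 8 A/J arrays, and on the Hspa8 probe set of its own chromosome the marked array reads 13.06, near the 8 C57BL/6J arrays.

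For 7 members the brightest probe set is numbered among probe sets of another chromosome than the gene's own: Dnaja1, Hsp90aa1, Hspa8, Hspb1, Hspd1, Hspe1 and Ptges3. Over the whole array, 96.8% of 21698 probe sets lie among neighbours of their gene's chromosome. Chaperone genes have many processed copies in the genome, and such a probe set can measure the gene, a copy or both. The brightest probe set of the gene's own chromosome was therefore read as well, a choice made after the values were seen. Hsp90aa1 and Hspe1 gave nearly the same difference on it, 0.78 and 1.12. Hspd1 gave 1.77 (SE 0.07) instead of 1.33, and Ptges3, not called before, gave 0.36 (SE 0.07, adjusted p = 4.00e-05). Dnaja1 gave 0.02 (SE 0.06, adjusted p = 0.752), and Hspb1 again did not reach the limit.

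**Figure D5:**
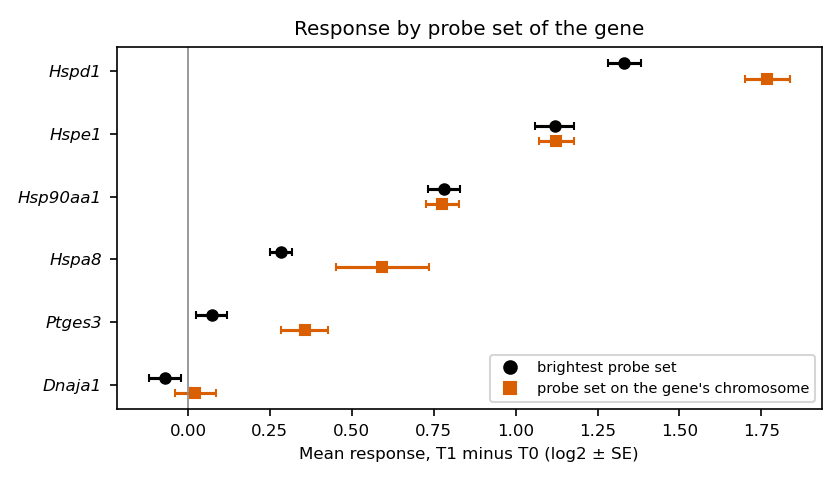
Difference between T1 and T0 (log2 ± SE, horizontal axis) for 6 genes on the brightest probe set (black) and on the brightest probe set numbered among those of the gene's own chromosome (orange). Hspd1, Hspa8 and Ptges3 lie further to the right on the second, and Dnaja1 goes from -0.07 to 0.02.

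For Hspa8, the constitutive HSP70, the strain range also changed with that choice. On the brightest probe set its 17 T1 arrays read between 12.34 and 12.74 and its 17 T0 arrays between 12.08 and 12.42. On the probe set of its own chromosome they read between 10.85 and 13.06 at T1 and between 10.12 and 12.93 at T0, and the difference was 0.59 (SE 0.14, adjusted p = 0.00036) instead of 0.28. C57BL/6J stood apart, at 12.84 ± 0.13 at T1 and 12.64 ± 0.20 at T0 (SD, n = 4) and the other 4 strains at 11.22 to 11.81 at T1 and 10.50 to 10.93 at T0. The strain range was 1.62 at T1 (adjusted p = 0.000521) and 2.14 at T0 (adjusted p = 1.08e-05). The doubtful Balb/c array read 13.06, above every C57BL/6J array, while the other 2 Balb/c arrays at T1 read 10.98 and 11.40. Without it the difference was 0.47 (SE 0.11) and the strain range at T1 was 1.65.

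On the own-chromosome probe set of Hspd1 the responses of the strains were called different only when that array was left out. The T1 means were 10.37 for DBA/2J and 129X1/SvJ, 10.23 for Balb/c with all arrays and 10.02 without the doubtful one, 9.84 for A/J and 9.81 for C57BL/6J. The T0 means lay between 8.20 and 8.49. The range of the responses was 0.77, with an adjusted p (F test over strains) of 0.0729 on all arrays and 0.0283 without the array. On the brightest probe set of Hspd1 the same test gave 0.217 and 0.17, so it was not called either way. With brightest probe sets, 10.3% of all genes were called without the array and 6.92% with it. Both the probe set and the doubt about the array came after the values were seen.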

How the data were processed

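Total RNA of 34 CD4+ splenocyte samples was measured on 1-colour arrays. For each probe set the authors deposited a log2 intensity, made by RMA per the submitters' processing notes (version not given in the sources used here), and were used as they stand. Of 35556 probe sets, 21789 carried 1 gene symbol, 1621 several and 12146 none, and 21698 gene IDs were found in the RefSeq GRCm38.p6 table. The brightest probe set per gene gave 19938 genes, of which 11413 reached the median of all values (5.327) in at least 1 of 10 group means. Models were fitted over these with limma 3.58.1 in R 4.3.3 (lmFit, eBayes), with Benjamini-Hochberg adjustment over all 11413 and a threshold of 0.05. The tests were the mean of the 5 strain responses, each strain's response, and moderated F tests over strains at T1, at T0 and for the response. Scripts were tested on simulated data. Named genes were the largest and smallest differences per class the 3 smallest p values per F test and, in each list of other genes, the largest rise and fall called alike in all strains. Other normalisations, probe set choices, filters, array weights, a replicate block and left-out arrays were tried. The members and lists were chosen with earlier results of these data known. The check of arrays against strain profiles, the probe sets of a gene's own chromosome and the fits without a whole strain were added after seeing the data.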

Additional observations from a re-analysis of the deposited data

Results flagged for a closer look

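Among groups of 4 arrays, 5 of 152 sets of values held 1 array far from the other 3, where chance gives about 1 in 20. Hspa8 read 12.55 on A/J T1 replicate 4, above the others at 12.44 to 12.45. Cct6a read 10.62 on A/J T1 replicate 1, above 10.43 to 10.44. Hspa5 read 11.96 on C57BL/6J T1 replicate 2, below 12.01 to 12.02. Calr read 10.48 on C57BL/6J T1 replicate 3, above 10.28 to 10.29. Pdia4 read 6.54 on A/J T0 replicate 4, below 6.85 to 6.89.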

How the results depend on the processing

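The number of arrays limits precision. Members with a difference between strains in response numbered 0 on all arrays (6.92% of all genes). They numbered 1 under quantile normalisation (8.9%), under a trended robust prior (7.11%) and under array weights (14.4%). There were 4 with the replicate block (Stip1, Hspa5, Dnajb9 and Pdia4, with 12.1%) and 2 without all Balb/c arrays (9.49%). Single arrays left out gave 0 to 2 (2 without C57BL/6J T1 replicate 1, with 7.23%). Members that differed between strains at T0 numbered 5 on all arrays (18.5% of all genes). The count was 3 under median centring (19.2%), 9 under array weights (29.8%), 3 without A/J (14.2%) and 3 without DBA/2J (14.9%). With single arrays left out it was 3 to 6 (3 without DBA/2J T0 replicate 4, with 16.7%). Members that differed between strains at T1 numbered 26 on all arrays (31% of all genes). The count was 13 without A/J (19%), 15 without DBA/2J (21.2%) and 17 without 129X1/SvJ (21.6%). It was 21 without C57BL/6J (25.8%), 27 without Balb/c (34.4%) and 20 to 27 with single arrays left out. Members lower at T1, 3 on all arrays, numbered 0 under median centring, which shifts the median of all genes to 0.16 (-0.07 as deposited, 0.03 under quantile normalisation). Signs turned for Ptges3 (-0.080), Hsp90b1 (-0.069) and Calr (-0.061) under quantile normalisation, for Hspa14 (0.075), Dnaja1 (0.16), Dnajb11 (0.12) and Pdia4 (0.055) under median centring, for Pdia4 (0.020) with probe sets averaged and for Dnaja1 (0.022) on its own-chromosome probe set. Deviations of same-numbered T1 and T0 arrays correlated at -0.08 to 0.47, over 0.1 in 14 of 17 pairs, and 25 of 34 arrays correlated best with their own number, a hint from the data and not the design. The numbers were not taken to pair the arrays. With the block 12.1% of all genes differed in response, against 6.92% without. The causes were not tested beyond the fewer samples that left-out strains give.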
